A study of Mus musculus with 20 samples.

Results

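The genes described here are 10 members and feedback regulators of the transforming growth factor beta (TGF-β) pathway, Tgfb1, Tgfb2, Tgfb3, Tgfbr1, Tgfbr2, Tgfbi, Inhba, Skil, Ski and Smad7. They were taken by gene symbol from a table of raw read counts per gene, and all 10 were present among its 22090 genes. RNA-seq had been performed on 20 pieces of skin from female SKH-1 mice, which lack fur and form skin tumors when exposed to ultraviolet light. Per the labels the mice were provided at 7 months of age, and by the study's methods the skin was taken later, at the end of the irradiation course. The samples were 8 of normal skin (NS), 8 of actinic keratosis (AK, a precancerous lesion of sun-damaged skin) and 4 of cutaneous squamous cell carcinoma (cSCC). No transgene or drug was involved, and the only treatment was light from a solar simulator, given to 4 mice and withheld from the other 4. By the study's account, the AK and cSCC samples and 4 of the NS samples came from the irradiated mice, so that NS combined skin with and without irradiation, and AK combined lesions of different grades. The labels did not give the mouse, the grade or the irradiation of a single NS sample, so each group was used as labelled and no sample was paired. Samples that share a mouse are not independent, and the p-values below measure the spread between samples only.

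TGF-β ligands are secreted in a latent form and, once released, bind the type II receptor, which activates the type I receptor. The type I receptor phosphorylates the signal carriers Smad2 and Smad3, which enter the nucleus with Smad4, and activins reach the same Smads through their own receptors. In epidermis the pathway is known to restrain keratinocyte growth, and in the stroma it is known to promote matrix production. Smad7, Ski and Skil act as brakes, and Smad7 and Skil are themselves switched on by the signal.

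Total counts ran from 1624325 to 6295575 in NS, from 867219 to 14055206 in AK and from 775750 to 7095102 in cSCC. The skin label was checked with 8 keratinocyte markers, none of which was at 0 in any group, and whose summed level was at least 3878 CPM (counts scaled to a common library size) in every sample. The lowest sums were those of cSCC replicates 21 and 20, at 3878 and 5383 CPM, against at least 7036 CPM in NS and 10030 CPM in AK. The sums do not show differences between the markers. Median levels of Krt1 and Krt10 were 2659 and 1685 CPM in NS and 80.4 and 28.0 CPM in cSCC. Krt15, Trp63 and Col17a1 also had lower medians in cSCC than in NS, while Krt5, Krt14 and Dsg3 had higher medians. Some cSCC samples stood apart. A list of 8 heart muscle markers summed to 54740 CPM in cSCC replicate 21 and to at most 155 CPM in any other sample, and a list of 8 lung markers summed to 36020 CPM in cSCC replicate 20. Red blood cell transcripts made up 46.9% of all counts in cSCC replicate 18. Endothelial markers summed to 106, 146, 244 and 777 CPM in cSCC replicates 18, 19, 20 and 21, against at most 108 CPM in NS and 87.5 CPM in AK. Results with cSCC that were called are therefore also given without replicate 20, replicate 21 or both where this ended the call. In bulk tissue, fewer cells of a type and less RNA per cell cannot be told apart.

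Per kilobase of exon, the order of mean levels in NS put the matrix protein gene Tgfbi first, at 57.8 CPM per kb. It was followed by Skil at 14.7, the receptor gene Tgfbr2 at 10.7, Ski at 6.19 and the receptor gene Tgfbr1 at 6.17 CPM per kb. The genes of lower level were Tgfb3 at 1.61, Tgfb2 at 1.60, Smad7 at 0.82 and Inhba at 0.504 CPM per kb, and Tgfb1 came last at 0.0787 CPM per kb. Ski and Tgfbr1, and likewise Tgfb3 and Tgfb2, were closer in mean level than the spread between their NS samples. The ligand genes thus stood below the receptor and co-repressor genes on the per-length scale in NS. In cSCC, Inhba reached 5.42 CPM per kb, above Tgfb3 at 3.51 and Tgfb2 at 3.39 CPM per kb, with wide spread in each.

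**Figure D1:**
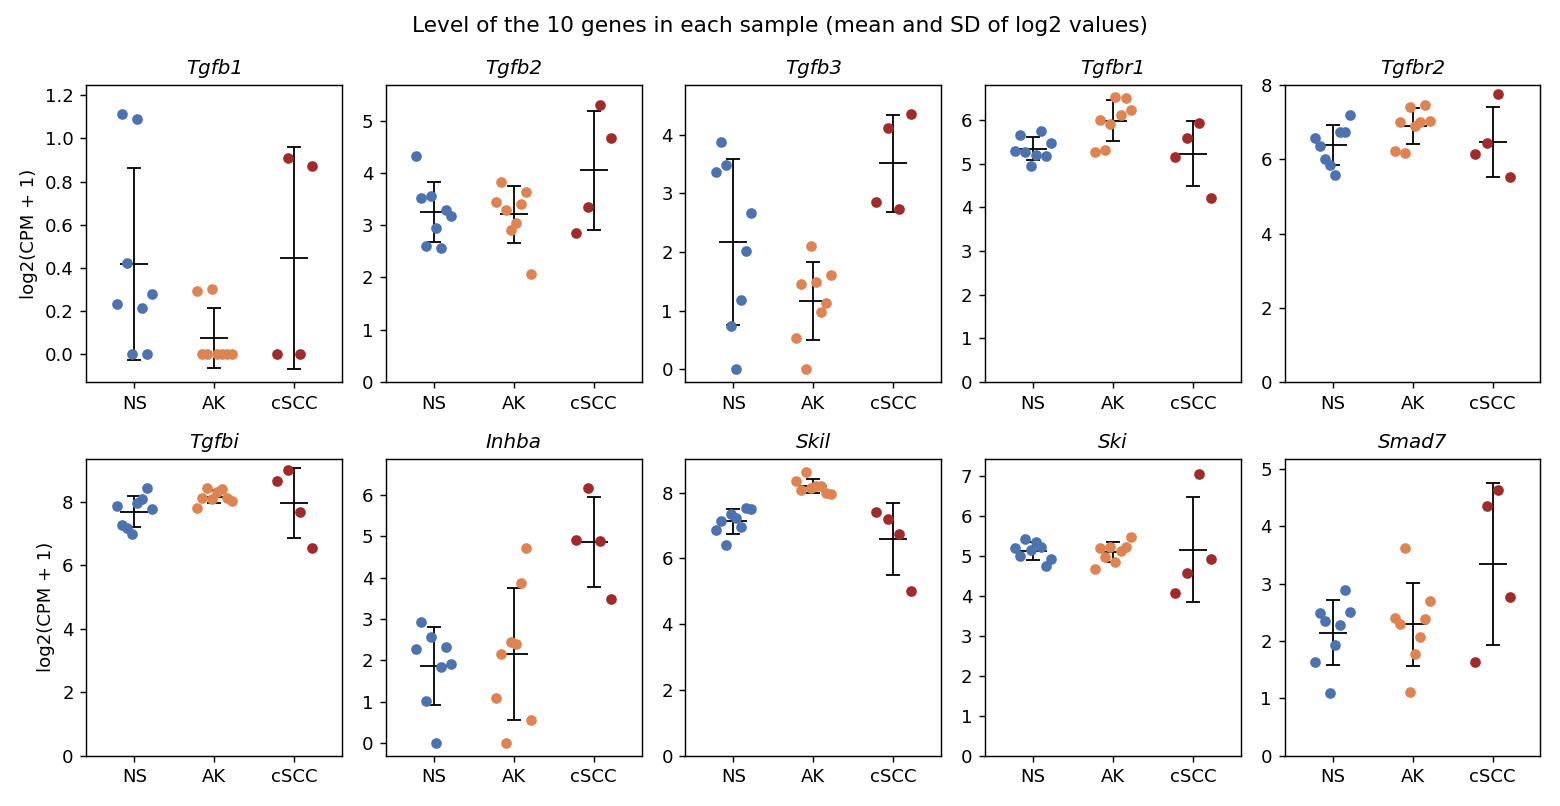
Level of each of the 10 genes in every sample, as log2(CPM + 1) on the vertical axis, by group on the horizontal axis. Points are samples (8 NS, 8 AK, 4 cSCC) and bars are the mean and SD of the log2 values; each panel has its own scale. The 8 AK samples of Skil lie above every NS and cSCC sample, and the 4 cSCC samples of Inhba lie above every NS sample.

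A gene was called when edgeR's quasi-likelihood test gave a Benjamini-Hochberg adjusted p under 0.05 over all genes tested and the fold change was above 1.5 or below 0.67. In AK vs. NS, 2 of the 8 genes that passed the filter on low counts were called, both higher (Skil and Tgfbr1), where 4.64% of all 11677 genes tested were called, 2.26% higher and 2.38% lower. In cSCC vs. NS, 2 of 9 tested genes were called, both higher (Inhba and Smad7), where 19.3% of 12097 genes were called, 11.7% higher and 7.65% lower. In cSCC vs. AK, 3 of 9 tested genes were called, with Tgfb3 and Inhba higher and Skil lower, where 24.4% of 12032 genes were called, 16% higher and 8.34% lower. Skil was the only gene of the set called in both AK vs. NS and cSCC vs. AK, which share the AK samples, and its directions were opposite. The median log2 fold change of the tested genes of the set was 0.45, 0.60 and 0.67 in the 3 comparisons, beside -0.04, 0.14 and 0.17 over all genes tested. Without cSCC replicates 20 and 21 the median of the set was 0.17 vs. NS and -0.084 vs. AK, beside -0.062 and -0.0059 over all genes. The AK vs. NS median leaves out Tgfb1 and Tgfb3, which did not pass the filter and stood at -1.90 and -1.85 without it. With all samples, scaling by library size alone in place of TMM factors moved the median over all genes in the 3 comparisons to -0.13, -0.17 and -0.09. That scaling also moved the share of calls that were higher from 48.7% to 26.8% in AK vs. NS, from 60.4% to 31.9% in cSCC vs. NS and from 65.8% to 43% in cSCC vs. AK. With upper quartile factors the share in AK vs. NS was 32.7%.

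**Figure D2:**
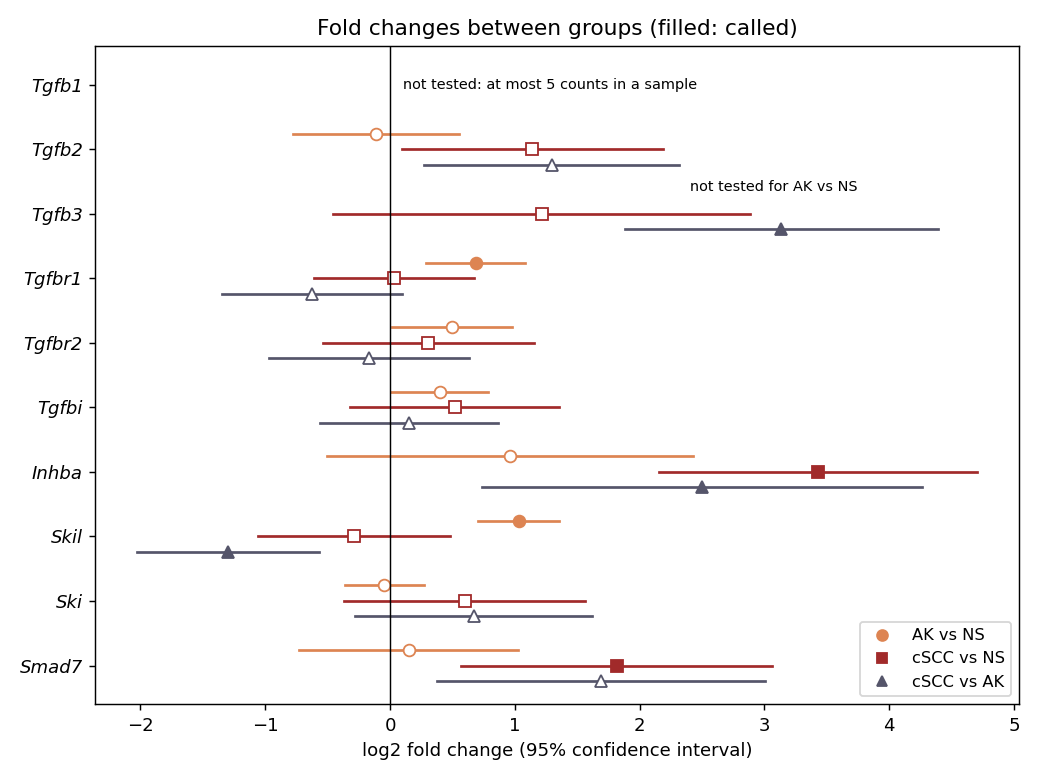
Log2 fold change (horizontal axis) of each gene of the set (vertical axis) in AK vs. NS (circles), cSCC vs. NS (squares) and cSCC vs. AK (triangles), with bars for the 95% confidence interval from edgeR and filled marks for called genes. Inhba in cSCC vs. NS, at 3.43, and Tgfb3 in cSCC vs. AK, at 3.13, lie farthest from 0, and Skil was called on opposite sides of 0 in AK vs. NS and cSCC vs. AK.

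The ligand genes were scarce in NS and AK. Tgfb1, which encodes the prototype TGF-β ligand, had 21 counts in all 20 samples together, with a count in 10 of them and at most 5 in any one. It never passed the filter on low counts and was not called without that filter, at log2 fold changes of -1.90 ± 0.95 SE in AK vs. NS (edgeR adjusted p = 0.252), 0.44 ± 1.10 in cSCC vs. NS (edgeR adjusted p = 0.818) and 2.22 ± 1.09 in cSCC vs. AK (edgeR adjusted p = 0.165). Tgfb2, a second ligand of the same receptors, ranged from 4.94 to 19.01 CPM in NS (median 8.46) and from 3.20 to 13.2 CPM in AK (median 9.21). Its cSCC values were 6.25, 9.23, 38.7 and 24.5 CPM in replicates 18 to 21. The higher Tgfb2 values were thus those of replicates 20 and 21, while replicates 18 and 19 lay inside the range of NS. Tgfb2 was not called in AK vs. NS (log2 fold change -0.12 ± 0.32 SE, edgeR adjusted p = 0.853), in cSCC vs. NS (1.14 ± 0.49, edgeR adjusted p = 0.116) or in cSCC vs. AK (1.30 ± 0.48, edgeR adjusted p = 0.0608). Without replicates 20 and 21 the log2 fold changes were -0.22 vs. NS and -0.08 vs. AK. Tgfb2 was called without cSCC replicate 18, in cSCC vs. NS (edgeR adjusted p = 0.0439), and without replicate 18 or 19 in cSCC vs. AK (edgeR adjusted p = 0.0236 to 0.0397).

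Tgfb3, the remaining ligand gene, varied widely in NS, from 0 to 13.6 CPM with a median of 4.18 CPM. In AK it ranged from 0 to 3.27 CPM (median 1.47), and in cSCC it stood at 6.25, 16.3, 5.69 and 19.4 CPM in replicates 18 to 21. All 4 cSCC samples lay above all 8 AK samples, whereas cSCC and NS overlapped, with NS replicates 1, 2 and 4 at 9.33, 13.6 and 10.2 CPM. In cSCC vs. AK, Tgfb3 was 8.78-fold higher (log2 3.13 ± 0.59 SE, 95% interval 1.88 to 4.39, edgeR adjusted p = 0.00335), where 3.33% of all genes had every cSCC sample above every AK sample. The value without replicates 20 and 21 was 2.97 (edgeR adjusted p = 0.0174). Against NS, Tgfb3 in cSCC had a log2 fold change of 1.21 ± 0.78 SE and was not called (edgeR adjusted p = 0.295). AK vs. NS did not pass the filter. Without the filter the log2 fold change was -1.85 ± 0.67 SE (edgeR adjusted p = 0.130), and with all 20 samples in a single fit it was -1.83 ± 0.66 (edgeR adjusted p = 0.199), so that Tgfb3 was not called. An exact permutation test of log2(CPM + 1), added after the data were seen, gave p = 0.0908 (two-sided, unadjusted, smallest possible p 7.77e-05) for AK at 1.44 ± 1.02 against NS at 5.43 ± 5.07 CPM (SD, n = 8 each). The counts behind these AK values were at most 14 in a sample. Reads from the opposite-strand transcripts Gm48008 and Gm37804, which share 7.6% and 4.82% of Tgfb3's exon bases in GENCODE M21, could not be told apart from Tgfb3, since the counting is not stated to use strand.

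Inhba showed the largest change of the set. It encodes the βA subunit of activin A and inhibin A, and lies on chromosome 13 (positions 16011851 to 16031621, plus strand, GRCm38, GENCODE M21). NS samples ranged from 0 to 6.66 CPM (median 3.32) and AK samples from 0 to 25.2 CPM (median 3.84). The 4 cSCC samples stood at 29.2, 70.7, 28.4 and 10.3 CPM in replicates 18 to 21. Every cSCC sample lay above every NS sample, and AK replicates 15 and 16, at 13.7 and 25.2 CPM, lay above the lowest cSCC value while the other 6 AK samples stood at or below 4.44 CPM. In cSCC vs. NS, Inhba was 10.8-fold higher (log2 3.43 ± 0.60 SE, 95% interval 2.15 to 4.71, edgeR adjusted p = 0.00283), where 2.7% of all genes had every cSCC sample above every NS sample. Without cSCC replicates 20 and 21 the log2 fold change was 3.94 (edgeR adjusted p = 0.00293). Against AK, Inhba in cSCC was higher by 2.50 ± 0.83 SE on the log2 scale (edgeR adjusted p = 0.0393). That call was lost in 8 of the 12 fits that left out 1 sample, with edgeR adjusted p from 0.0521 to 0.156, and was kept without AK replicate 15 or 16 or cSCC replicate 18 or 21. It was kept without both cSCC replicates 20 and 21 (3.04, edgeR adjusted p = 0.0401), and lost with library size alone (edgeR adjusted p = 0.0658) or with no filter (edgeR adjusted p = 0.0528). In AK vs. NS the log2 fold change of Inhba was 0.96 with a 95% interval from -0.51 to 2.43 (edgeR adjusted p = 0.413).

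The 250 bases before the RefSeq start of Inhba and of Tgfbi are printed because Inhba changed most and Tgfbi, a gene named for its induction by TGF-β, had the highest level per length of the set in all 3 groups. Capitals mark CAGAC or GTCTG, the motif that Smad3 and Smad4 are known to bind, on either strand. RefSeq windows (GRCm38.p6) matched 7 of the 10 genes, giving 8 windows, and no window at hand matched Tgfb3, Skil or Smad7. The Inhba window is chr13:16011601-16011850 and the Tgfbi window chr13:56609336-56609585, both on the plus strand.
Inhba: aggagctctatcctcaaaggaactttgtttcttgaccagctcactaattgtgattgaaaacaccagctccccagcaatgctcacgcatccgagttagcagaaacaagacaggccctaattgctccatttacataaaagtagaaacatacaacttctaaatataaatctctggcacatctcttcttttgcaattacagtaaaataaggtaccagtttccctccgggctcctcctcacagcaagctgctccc
Tgfbi: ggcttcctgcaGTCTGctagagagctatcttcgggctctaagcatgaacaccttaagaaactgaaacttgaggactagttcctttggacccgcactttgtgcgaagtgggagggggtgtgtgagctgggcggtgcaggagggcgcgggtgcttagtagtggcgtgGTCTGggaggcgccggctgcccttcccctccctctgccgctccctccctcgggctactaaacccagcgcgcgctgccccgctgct
The Inhba window holds none of these motifs and the Tgfbi window holds 2. At least 1 was found in 4 of the 8 windows of the set, beside 42.2% of 32851 promoter windows of the same length, and 11.7% of all windows held 2 or more. The AP-1 motif TGANTCA was in 0 of the 8 windows and in 6.75% of all windows. These matches describe letters in the window only.

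Fst encodes follistatin, which binds and neutralises activin, and was followed beside Inhba. It ranged from 8.10 to 24.04 CPM in NS and from 7.93 to 28.2 CPM in AK, and stood at 44.5, 268, 58.0 and 46.3 CPM in cSCC replicates 18 to 21. All 4 cSCC samples exceeded all NS and AK samples. Fst was 7.72-fold higher in cSCC vs. NS (log2 2.95 ± 0.45 SE, edgeR adjusted p = 0.00167) and 5.95-fold higher in cSCC vs. AK (2.57 ± 0.46, edgeR adjusted p = 0.00288). Without replicates 20 and 21 the log2 fold changes were 3.52 and 3.16. The ratio of Inhba to Fst counts had a median of 0.241 in NS, 0.183 in AK and 0.377 in cSCC, with ranges of 0 to 0.611, 0 to 1.05 and 0.221 to 0.656 that overlapped.

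Of both receptor genes, Tgfbr1 alone was called, in AK vs. NS. Tgfbr1 encodes the type I receptor kinase and ranged from 29.9 to 52.8 CPM in NS (median 37.8) and from 37.7 to 92.0 CPM in AK (median 66.1). In cSCC it stood at 34.7, 47.5, 60.3 and 17.7 CPM in replicates 18 to 21. Of the 8 AK samples, 6 lay above every NS sample, and the lowest cSCC value was that of replicate 21. In AK vs. NS, Tgfbr1 was 1.61-fold higher (log2 0.69 ± 0.19 SE, 95% interval 0.29 to 1.09, edgeR adjusted p = 0.0418). The call was kept in only 4 of the 16 fits that left out 1 sample, those without NS replicate 7 or 9 or AK replicate 10 or 12, and edgeR adjusted p ran from 0.0501 to 0.0858 in the other 12. With a correction for GC content, chosen after seeing the data, the log2 fold change was 0.42 (edgeR adjusted p = 0.246). Tgfbr1 was not called in cSCC vs. NS (0.03, 95% interval -0.61 to 0.67, edgeR adjusted p = 0.953) or in cSCC vs. AK (-0.63, -1.35 to 0.10, edgeR adjusted p = 0.187).

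Tgfbr2 encodes the ligand-binding type II receptor kinase. It ranged from 46.8 to 145 CPM in NS (median 87.9) and from 70.6 to 174 CPM in AK (median 128), and stood at 70.2, 85.2, 214 and 45.3 CPM in cSCC replicates 18 to 21. Both the highest and the lowest value of all 20 samples were thus cSCC samples, those with the lung and the heart muscle markers. Tgfbr2 was not called in AK vs. NS (log2 0.50 ± 0.23 SE, edgeR adjusted p = 0.187), cSCC vs. NS (0.31 ± 0.40, edgeR adjusted p = 0.623) or cSCC vs. AK (-0.17 ± 0.37, edgeR adjusted p = 0.778). Without replicate 20 the value in cSCC vs. NS was -0.35, and without replicate 21 it was 0.55.

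Skil was the gene of the set whose AK samples stood apart from both other groups. It encodes SnoN, a co-repressor that binds Smad complexes and is itself induced by the signal. NS samples ranged from 83.8 to 184 CPM (median 145) and AK samples from 249.8 to 391 CPM (median 288). In cSCC it stood at 169, 147, 106 and 30.9 CPM in replicates 18 to 21. Every AK sample lay above every NS and every cSCC sample, and cSCC overlapped with NS. In AK vs. NS, Skil was 2.04-fold higher (log2 1.03 ± 0.16 SE, 95% interval 0.71 to 1.36, edgeR adjusted p = 0.00615), where 0.394% of all genes had every AK sample above every NS sample. From AK to cSCC it fell by 1.30 on the log2 scale (SE 0.34, edgeR adjusted p = 0.0151), where 6.84% of all genes had every cSCC sample below every AK sample. It was not called in cSCC vs. NS (log2 -0.29, 95% interval -1.06 to 0.48, edgeR adjusted p = 0.610). Both calls were kept whichever sample was left out, and with GC correction they stood at 0.78 (edgeR adjusted p = 0.0171) and -0.83 (edgeR adjusted p = 0.0497). Without cSCC replicates 20 and 21 the value in cSCC vs. AK was -0.83 (edgeR adjusted p = 0.0318). With all 20 samples in a single fit, Skil in AK vs. NS had the log2 fold change 1.04 and was not called (edgeR adjusted p = 0.0765), in a fit that called 9 genes in all.

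Ski, the founding member of the same co-repressor family, was nearly level across NS and AK. It ranged from 25.9 to 41.7 CPM in NS (median 35.4) and from 24.8 to 43.4 CPM in AK (median 35.0), and stood at 15.98, 22.8, 133 and 29.4 CPM in cSCC replicates 18 to 21. The sample with lung markers, replicate 20, was the only one of the 20 above 43.4 CPM. Ski was not called in AK vs. NS (log2 -0.05, 95% interval -0.36 to 0.27, edgeR adjusted p = 0.881), cSCC vs. NS (0.60 ± 0.45 SE, edgeR adjusted p = 0.375) or cSCC vs. AK (0.67 ± 0.44 SE, edgeR adjusted p = 0.284). Without replicates 20 and 21 both comparisons with cSCC turned negative, to -0.79 and -0.71, without being called. The ratio of Skil to Ski counts had a median of 4.11 in NS (2.01 to 7.12), 8.18 in AK (5.75 to 13.3) and 3.75 in cSCC, where the 4 ratios were 10.6, 6.44, 0.795 and 1.05 in replicates 18 to 21. Skil and Ski transcripts differ in GC content, at 41% and 55.6%, and the ratio was not corrected for the GC trend given below. With GC correction the log2 fold changes in AK vs. NS were 0.78 for Skil and 0.25 for Ski.

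Smad7 encodes the inhibitory Smad that blocks the type I receptor and directs it to degradation. Its counts were low, with 368 in all 20 samples. NS ranged from 1.13 to 6.39 CPM (median 3.95) and AK from 1.17 to 11.4 CPM (median 4.05), and cSCC replicates 18 to 21 stood at 2.08, 19.3, 23.9 and 5.79 CPM. Replicates 19 and 20 were above every NS and AK sample, and replicates 18 and 21 were inside the NS range. Smad7 was 3.52-fold higher in cSCC vs. NS (log2 1.81 ± 0.58 SE, 95% interval 0.57 to 3.06, edgeR adjusted p = 0.0421). The call was lost in 9 of 12 fits that left out 1 sample, with edgeR adjusted p from 0.0533 to 0.146, and was kept without NS replicate 8, cSCC replicate 18 or cSCC replicate 21. It was also lost without both cSCC replicates 20 and 21 (1.59, edgeR adjusted p = 0.146). Smad7 was not called in AK vs. NS (0.15 ± 0.42 SE, edgeR adjusted p = 0.856) or in cSCC vs. AK (1.69 ± 0.62 SE, edgeR adjusted p = 0.0582), where it was called without AK replicate 12 or cSCC replicate 18 (edgeR adjusted p = 0.0202 to 0.0437).

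Tgfbi encodes a secreted matrix protein that binds collagens and integrins. It ranged from 128 to 348 CPM in NS (median 224) and from 223 to 347 CPM in AK (median 279), and stood at 403, 512, 204 and 92.6 CPM in cSCC replicates 18 to 21. Replicates 18 and 19 lay above every NS and AK sample, and replicate 21 below every one of them. Tgfbi was not called in AK vs. NS (log2 0.40 ± 0.19 SE, edgeR adjusted p = 0.191), cSCC vs. NS (0.52 ± 0.39, edgeR adjusted p = 0.375) or cSCC vs. AK (0.15 ± 0.33, edgeR adjusted p = 0.770). Without replicates 20 and 21 it was called higher in both comparisons with cSCC, at 1.10 (edgeR adjusted p = 0.0497) and 0.73 (edgeR adjusted p = 0.0427).

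**Figure D3:**
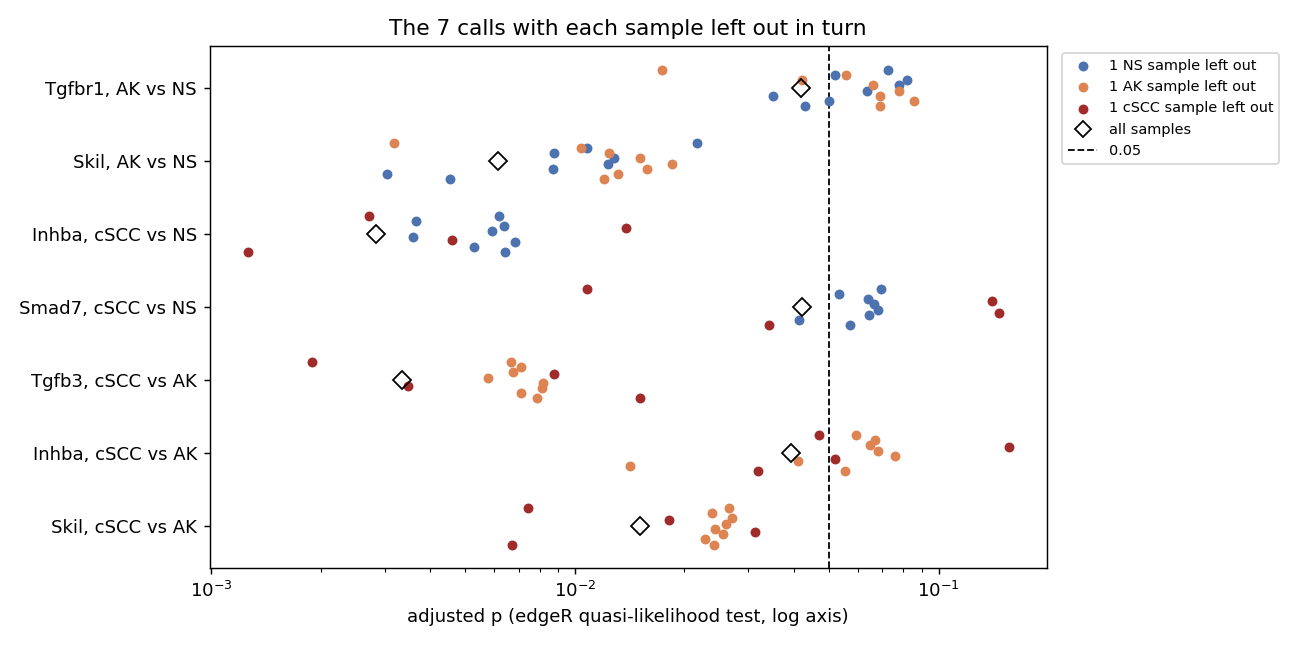
Adjusted p from edgeR (horizontal axis, log scale) of the 7 calls when each sample was left out in turn, with 1 point per sample left out, a diamond for all samples and a dashed line at 0.05. All points for Skil, for Inhba in cSCC vs. NS and for Tgfb3 lie left of the line, while 12 of 16 for Tgfbr1, 9 of 12 for Smad7 and 8 of 12 for Inhba in cSCC vs. AK lie right of it.

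Fold changes also moved with the GC content of transcripts over all genes. In AK vs. NS the median log2 fold change was 0.21 in the 20% of genes lowest in GC and -0.36 in the 20% highest. For cSCC vs. NS these medians were -0.09 and 0.44, and in cSCC vs. AK they were -0.30 and 0.78. The called genes of the set differed in GC, with Skil and Tgfbr1 at 41%, Inhba at 41.4%, Tgfb3 at 53% and Smad7 at 56.9%. In cSCC vs. AK, the called values of Inhba and Tgfb3 lay above the medians of all 5 GC groups. In cSCC vs. NS, those of Inhba and Smad7 did so by the rule for calling alone. The highest median there, 0.44, was below the log2 of the fold change needed for a higher call. With GC correction Inhba stood at 3.65 (edgeR adjusted p = 0.00181) in cSCC vs. NS and 2.99 (edgeR adjusted p = 0.0184) in cSCC vs. AK, Tgfb3 at 2.83 (edgeR adjusted p = 0.00516) in cSCC vs. AK, and Smad7 at 1.70 (edgeR adjusted p = 0.0614) in cSCC vs. NS.

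**Figure D4:**
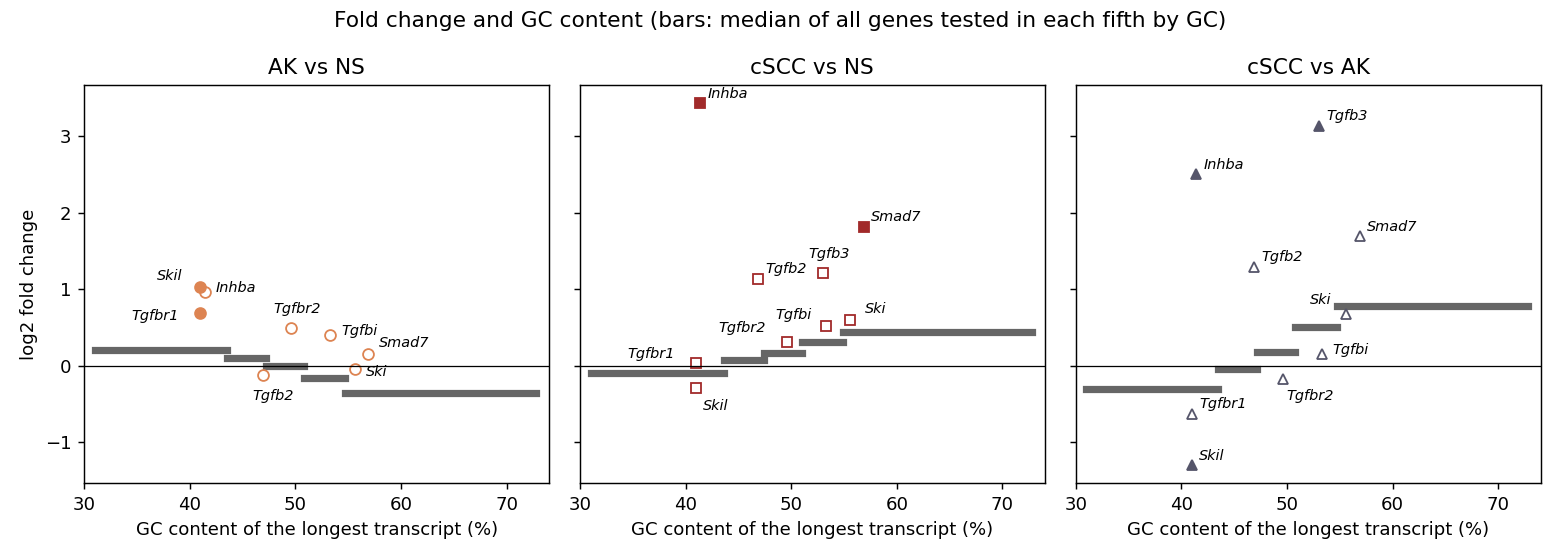
Log2 fold change (vertical axis) of each gene of the set against the GC content of its longest transcript in percent (horizontal axis), for the 3 comparisons, with filled marks for called genes. Horizontal bars are medians of all genes tested in 5 equal groups by GC, and fall from 0.21 to -0.36 in AK vs. NS and rise from -0.30 to 0.78 in cSCC vs. AK.

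The rest of the pathway was read from 5 lists of related genes. In AK vs. NS, of the tested genes of the lists, Smad2, a carrier of the signal, was the only call (log2 0.62 ± 0.13 SE, edgeR adjusted p = 0.0190). None of the 14 ligand and latency genes, 8 receptors, 10 inhibitors or 21 target genes tested was called there, where 4.64% of all 11677 genes tested were called. At that share, lists this short would hold few calls or none. Between cSCC and NS, 7 of 22 target genes rose and none fell, with a median log2 fold change of 0.91 beside 0.14 over all genes, where 11.7% of all genes tested were called higher. They included Tgm2, a transglutaminase (3.14 ± 0.68 SE, edgeR adjusted p = 0.00776), Itga5, the fibronectin receptor subunit (2.68 ± 0.58, edgeR adjusted p = 0.00767), and Angptl4 (1.52 ± 0.43, edgeR adjusted p = 0.0243). Without cSCC replicate 21, 3 of 22 were called higher, Junb and Angptl4 among them, where 14.2% of all genes were called in either direction and 49.1% of those calls were higher. Without both replicates 20 and 21 it was 1 of 22, where 12.2% of all genes were called and 47% of those calls were higher. Without replicate 21, Tgm2 stood at 1.25 (edgeR adjusted p = 0.140) and Itga5 at 1.81 (edgeR adjusted p = 0.0532), and Angptl4 stood at 1.41 without replicate 20 (edgeR adjusted p = 0.0523). Among 11 inhibitors, Fst and the ubiquitin ligase gene Nedd4l (1.55 ± 0.50 SE, edgeR adjusted p = 0.0411) were called higher, and none of 5 Smad genes was called. The Nedd4l call was lost without replicate 20 (1.09, edgeR adjusted p = 0.150), without replicate 21 (1.44, edgeR adjusted p = 0.0946) and without both (0.54, edgeR adjusted p = 0.578).

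Over all genes tested in cSCC vs. NS, 19.3% were called, 11.7% higher and 7.65% lower. Of 15 ligand, latency and activation genes in cSCC vs. NS, Ltbp2, a latent TGF-β binding protein family member, rose (2.27 ± 0.61 SE, edgeR adjusted p = 0.0201), a call lost without replicate 21 (2.13, edgeR adjusted p = 0.0594) and without both replicates 20 and 21 (2.15, edgeR adjusted p = 0.104). Itgb8, the integrin subunit that helps release latent TGF-β, fell by 2.33 on the log2 scale (SE 0.65, edgeR adjusted p = 0.0231), with every cSCC sample below every NS sample, as 5.73% of all genes had. Among 9 receptors, the endothelial co-receptor Eng (3.58 ± 0.79, edgeR adjusted p = 0.00814) and Acvrl1 (1.85 ± 0.58, edgeR adjusted p = 0.0395) rose and Bmpr1a, a BMP receptor, fell by 0.92 (SE 0.28, edgeR adjusted p = 0.0331). Both risers are known from endothelial cells, whose summed markers reached 777 CPM in replicate 21, which also carried the heart muscle markers. Without replicate 21 Eng stood at 1.79 (edgeR adjusted p = 0.113) and Acvrl1 at 0.70 (edgeR adjusted p = 0.451), and the cause was not tested. Bmpr1a stood at -0.79 without replicate 21 (edgeR adjusted p = 0.0757) and at -0.81 without both replicates 20 and 21 (edgeR adjusted p = 0.134), so that all 3 receptor calls were lost. Itgb8 stayed called without replicate 21, at -1.89 (edgeR adjusted p = 0.0293), and without both replicates 20 and 21, at -2.26 (edgeR adjusted p = 0.0360).

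**Figure D5:**
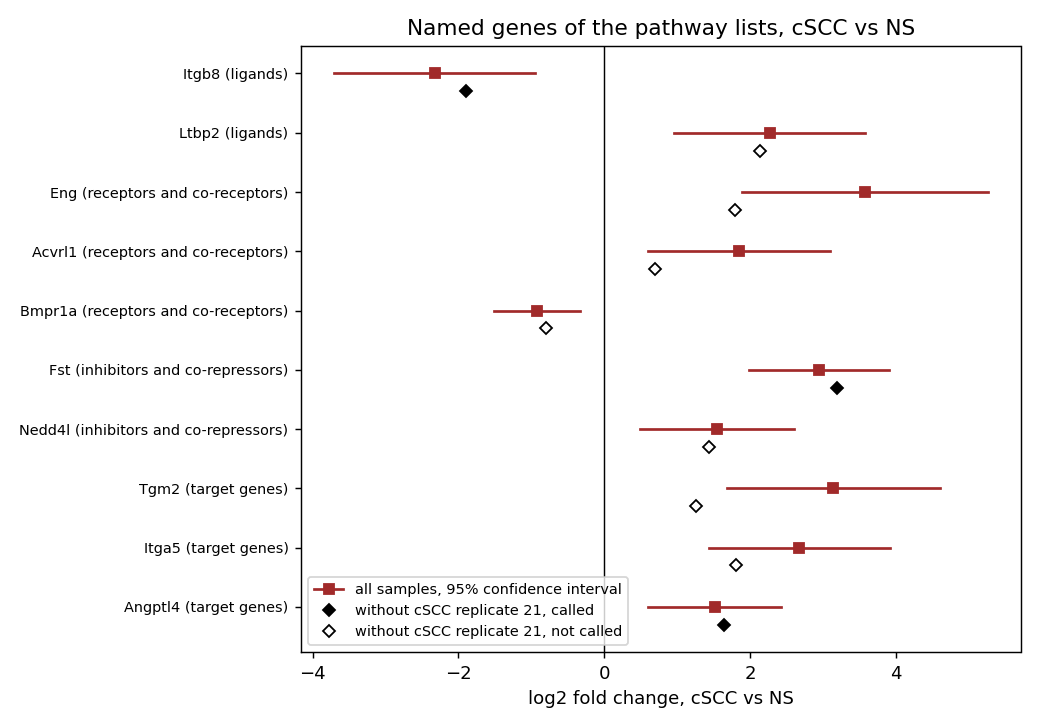
Log2 fold change in cSCC vs. NS (horizontal axis) of the named pathway genes (vertical axis, list in brackets). Squares with 95% confidence intervals use all samples, and diamonds, filled where called, leave out cSCC replicate 21; Eng moved from 3.58 to 1.79, and Fst from 2.95 to 3.20.

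Between cSCC and AK, 9 of 22 target genes rose and 1, the matrix gene Postn, fell, with a median of 0.78 beside 0.17 over all genes, where 16% of all genes tested were called higher and 8.34% lower. Acta2, smooth muscle actin, rose by 2.01 ± 0.36 SE on the log2 scale (edgeR adjusted p = 0.00288), and Tgm2 and Itga5 by 3.80 and 2.11. Without replicate 21, 7 of 22 rose, where 14.7% of all genes were called in either direction and 46.8% of those calls were higher. Without both replicates 20 and 21, 5 of 22 rose, where 12.6% of all genes were called and 53.2% of those calls were higher. Acta2 stayed called without both (1.99, edgeR adjusted p = 0.00776). Without both, Tgm2 stood at 1.66 (edgeR adjusted p = 0.0816) and Itga5 at 1.34 (edgeR adjusted p = 0.248) and neither was called, and Postn was called in none of the fits without replicate 20, replicate 21 or both (edgeR adjusted p = 0.0645, 0.0542 and 0.143).

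For the other lists in cSCC vs. AK, the share over all genes tested was again 24.4% called, 16% higher and 8.34% lower. Of 16 ligand and latency genes in cSCC vs. AK, Bmp4 (3.06), Ltbp4 (2.56) and Furin (1.64), the protease that cleaves TGF-β precursors, rose and Itgb8 fell by 2.61. Bmp4 was not called without replicate 20 (1.22, edgeR adjusted p = 0.271) and Ltbp4 not without replicate 21 (1.10, edgeR adjusted p = 0.206). Without both, Bmp4 stood at 0.10 and Ltbp4 at -0.14, while Furin (1.66, edgeR adjusted p = 0.0267) and Itgb8 (-2.53, edgeR adjusted p = 0.00442) stayed called. Of 10 receptors, Eng (4.41) and Acvrl1 (2.91) rose and the BMP receptor genes Bmpr2 and Bmpr1a fell by 1.17 and 1.10. Acvrl1 was not called without replicate 21 (1.63, edgeR adjusted p = 0.180) or without both (1.39, edgeR adjusted p = 0.343), and the other receptor calls were kept in the fits without replicate 20, replicate 21 or both. Smad1, which carries BMP signals, fell by 1.39 (SE 0.37, edgeR adjusted p = 0.0164) and was the only one of 5 Smad genes called. Without both replicates 20 and 21 its value was -0.89 and the call was lost (edgeR adjusted p = 0.0973). Among 10 inhibitors Fst and Nedd4l rose, by 2.57 and 2.17, and Nedd4l was not called without both (1.13, edgeR adjusted p = 0.280).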

How the data were processed

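RNA from 20 skin samples (8 NS, 8 AK, 4 cSCC) had been sequenced by the authors, who deposited raw read counts per gene symbol in a single table. The submitters' processing notes name Trimmomatic 0.36, HISAT2 2.0.5 and featureCounts 1.5.2 with the builds hg19 and mm9, whereas the study's methods name HISAT2 on GRCm38 and StringTie. The irradiation schedule also differs between the labels and the methods. Whether counting used strand is not given in the sources used here. From the counts, edgeR 4.0.16 (R 4.3.3) was run with TMM factors, filterByExpr and the quasi-likelihood test on the samples of both groups compared, with Benjamini-Hochberg adjustment over all genes tested. SEs and 95% intervals came from the same fit. CPM values were computed here with TMM factors over all 20 samples, and per-kb levels with exon lengths from GENCODE M21. Alternatives used DESeq2 1.42.0, limma 3.58.1 voom, other scalings, filters and sample sets. Only the main edgeR fit was tested on simulated data.

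All 10 genes are given. From each pathway list, at most 4 called genes per comparison were named, those of largest absolute log2 fold change, except 1 gene that is not reported here, and Junb and Postn were named after their values were seen. The genes, lists and tests were chosen with earlier results of these data known. The intervals cover counting error and the spread between samples as estimated by the edgeR fit, and do not allow for samples that share a mouse. Totals of 775750 to 14055206 counts limit the precision of Tgfb1, Tgfb3, Inhba and Smad7. Genes of GC content known made up 96.2% to 96.3% of those tested.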

Additional observations from a re-analysis of the deposited data

Results flagged for a closer look

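Each gene's samples were checked within each group for a highest or lowest value far from the rest, in 33 sets of values, and 4 stood out, all of them highest values. Chance alone picks about 1 in 20 if values are normally distributed, which was not checked for these CPM values. Whether 4 is more than chance would pick here was therefore not established. Tgfb2 in NS replicate 1 was 19.01 CPM, with the next NS sample at 10.8 CPM. Smad7 in AK replicate 12, the AK sample with the fewest counts, was 11.4 CPM on 9 counts, with the next at 5.49 CPM. Ski in cSCC replicate 20, which carried the lung markers, was 133 CPM, with the next at 29.4 CPM. Fst in cSCC replicate 19 was 268 CPM, with the next at 58.0 CPM.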

How the results depend on the processing

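The number of genes of the set called in AK vs. NS was 2, and 1 with library size alone, upper quartile factors, no filter, at least 10 counts in every sample or GC correction, and 0 with all 20 samples in 1 fit. Leaving out 1 sample gave 1 to 2. In cSCC vs. NS it was 2, and 1 with library size alone, voom, no filter, the equal-variance test or GC correction, and 0 with at least 10 counts in every sample, a filter that Inhba and Smad7 could not pass. Leaving out 1 sample gave 1 to 3. In cSCC vs. AK it was 3, with 5 under DESeq2 or unadjusted p, 1 with at least 10 counts in every sample, 2 with library size alone or no filter, 4 with all 20 samples in 1 fit, GC correction or without replicates 20 and 21, and 2 to 5 with 1 sample left out. The log2 fold change changed sign for Ski in AK vs. NS (0.25 with GC correction), and in cSCC vs. NS for Tgfbr1 (-0.18 with library size alone, -0.010 with no filter, -0.036 with all 20 samples in 1 fit, -0.059 with the equal-variance test). It changed sign without cSCC replicates 20 and 21 in cSCC vs. NS for Tgfb2 (-0.22), Tgfbr2 (-0.14), Skil (0.17) and Ski (-0.79), and in cSCC vs. AK for Tgfb2 (-0.084) and Ski (-0.71). In cSCC vs. AK, Tgfbi was -0.063 with library size alone, -0.080 with the equal-variance test and -0.059 with GC correction. With 1 sample left out, values crossing 0 ran in AK vs. NS from -0.23 to 0.13 for Tgfb2, -0.11 to 0.017 for Ski and -0.10 to 0.31 for Smad7. In cSCC vs. NS they ran from -0.25 to 0.28 for Tgfbr1, -0.35 to 0.55 for Tgfbr2, -0.57 to 0.025 for Skil and -0.54 to 0.85 for Ski, and in cSCC vs. AK from -0.79 to 0.0039 for Tgfbr2, -0.23 to 0.37 for Tgfbi and -0.41 to 0.91 for Ski. None of these values was called, and the cause was not tested. Over all genes, the 542 calls of AK vs. NS became 1049 with DESeq2, 1043 with voom, 9 with all 20 samples in 1 fit, 250 with GC correction, 1798 with unadjusted p and 1841 with the equal-variance test. The 2340 calls of cSCC vs. NS became 1308 with voom, 1526 with at least 10 counts in every sample, 1558 without replicates 20 and 21 and 4052 with unadjusted p, and the 2935 of cSCC vs. AK became 1270, 1731, 1584 and 4504. With 1 sample left out, calls over all genes ran from 164 (without NS replicate 4) to 920 (without NS replicate 8) in AK vs. NS, from 1695 (without NS replicate 5) to 3181 (without cSCC replicate 18) in cSCC vs. NS, and from 1787 (without cSCC replicate 21) to 3994 (without cSCC replicate 18) in cSCC vs. AK. Mean CPM levels were recomputed only with library size alone, with upper quartile factors and with 1 sample left out. None moved by more than 1 SD. Leaving out 1 sample cannot move a group mean by that much, so that setting could not have shown otherwise. Levels without both cSCC replicates 20 and 21 were not computed. No paired analysis was possible because the replicate numbers are not shared between the groups.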

Other observations

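Over the 16 NS and AK samples, with each gene centred within its group, the log2(CPM + 1) values of the receptor genes Tgfbr1 and Tgfbr2 had a Pearson r of 0.65, and the co-repressor genes Skil and Ski had an r of -0.70. Among all pairs of the genes of the set tested in AK vs. NS, these were the highest and the lowest r. The next highest was 0.59 (Tgfbr2 and Inhba) and the next lowest -0.40 (Tgfbr1 and Skil). These are descriptions over samples that share mice and differ in depth and GC trend. Of 11676 genes compared with Inhba in the same way, the 5 most alike were Dlgap1 (r = 0.88), Chsy1 (0.84), Igfbp4 (0.82), Scrn1 (0.80) and Cspg4 (0.80). AK replicates 15 and 16 were the AK samples highest in Inhba, and their part in these values was not tested.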
